A study of Homo sapiens with 2 samples.

Results

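The GLUT family sugar transporters, encoded by the SLC2A genes, were examined on 2 arrays of Ca9-22 cells, an established line of human gingival squamous cell carcinoma. The PTHLH culture carried a lentiviral vector for parathyroid hormone-like hormone, a secreted autocrine and paracrine ligand, and the empty vector culture carried the vector without that gene. Both cultures were selected with blasticidin as mixed populations, and total RNA of each was hybridised to 1 Affymetrix U133 array. The level of PTHLH itself is not analysed here, because no probe set was named for it in the annotation used. The titles and the cell line field of the labels were followed, although their free-text description names CX-1 cells and RAB3C.

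The members were chosen by gene symbol from a list of 10 SLC2A genes, and SLC2A5 had been noted beforehand for its high value on the PTHLH array, so all differences between the 2 arrays are given as a description. All 10 genes had a probe set, a group of short oligonucleotides for a transcript, and 23 of the 41097 probe sets with a single gene symbol belonged to them. A further 2 probe sets are annotated to both SLC2A3 and SLC2A14, its close paralog and chromosomal neighbour, and were not counted for either gene. With 1 array for each culture there is no spread between cultures, no test was possible, and an effect of PTHLH cannot be told apart from any other difference between the 2 cultures.

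GLUT proteins carry sugars and related molecules across membranes down their concentration gradient, through a bundle of membrane-spanning helices that opens to either side in turn. The glucose carriers SLC2A1 (GLUT1), SLC2A3 (GLUT3) and SLC2A4 (GLUT4) form the first class of the family. SLC2A5 (GLUT5) is the fructose carrier of the intestine, SLC2A9 (GLUT9) carries urate, and SLC2A13 (HMIT) carries myo-inositol together with protons. Many carcinomas hold high SLC2A1, the basis of tumour imaging with labelled deoxyglucose.

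The sequences upstream of the start sites of the highest member, the lowest member and the most widely expressed glucose carrier are shown first, as background. Their relation to the values below was not tested. They are the 250 bases before the RefSeq start site in GRCh38.p14, on the gene's own strand, 5′ to 3′. Capitals mark every match on either strand to TATAAA (the TATA box), GGGCGG (the GC box bound by SP1), ACGTG (the core of hypoxia elements), TGACG (the core of cAMP response elements) or TGTGGT (a RUNX site). SLC2A5 lies at chr1:9069636-9069885 on the minus strand, SLC2A13 at chr12:40106082-40106331 on the minus strand and SLC2A1 at chr1:42958869-42959118 on the minus strand.
SLC2A5: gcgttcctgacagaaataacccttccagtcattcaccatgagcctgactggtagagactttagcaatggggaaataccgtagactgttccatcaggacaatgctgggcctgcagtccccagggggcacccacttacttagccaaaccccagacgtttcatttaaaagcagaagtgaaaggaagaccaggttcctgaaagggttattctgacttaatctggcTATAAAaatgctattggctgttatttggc
SLC2A13: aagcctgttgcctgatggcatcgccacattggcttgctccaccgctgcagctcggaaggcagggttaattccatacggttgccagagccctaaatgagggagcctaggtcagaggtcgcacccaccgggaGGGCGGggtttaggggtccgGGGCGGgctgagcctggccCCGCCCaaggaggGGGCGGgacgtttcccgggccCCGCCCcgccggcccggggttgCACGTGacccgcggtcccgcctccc
SLC2A1: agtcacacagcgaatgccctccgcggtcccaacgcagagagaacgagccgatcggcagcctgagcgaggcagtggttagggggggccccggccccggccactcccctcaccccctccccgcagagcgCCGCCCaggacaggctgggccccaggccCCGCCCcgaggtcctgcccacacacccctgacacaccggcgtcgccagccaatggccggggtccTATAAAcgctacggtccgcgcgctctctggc

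SLC2A5 held a TATA box match that begins 29 bases before the start site, no GC box match, and a GC content of 46.8%. SLC2A13 held no TATA box match, 5 GC box matches and a GC content of 70.0%. Its 2 matches to ACGTG, 1 on each strand, overlap in the single run CACGTG. SLC2A1 held a TATA box match that begins 31 bases before the start site and 2 GC box matches, with a GC content of 72.4%. Of 35116 upstream windows of the same length, 10.7% held TATAAA, 42.6% GGGCGG, 18.5% ACGTG, 21.2% TGACG and 11.0% TGTGGT. Their median GC content was 58%, with percentile 10 at 38% and percentile 90 at 75.2%. Each GC content given above lies between these percentiles. None of the 9 windows of the 8 members found in the RefSeq table held TGACG or TGTGGT, and TATAAA was found in those of SLC2A5 and SLC2A1. No measurement of start sites or of factor binding was made, so these matches describe the letters alone.

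The intensities are in arbitrary units and serve to compare the 2 arrays at the same probe set, not different probe sets with each other. The median of all probe sets was 19.4 on the PTHLH array and 19.5 on the empty vector array. Of the member probe sets, 11 lay above the medians of both arrays, 1 above a single median and 11 below both. The brightest probe set of SLC2A1, SLC2A5, SLC2A6, SLC2A8, SLC2A9, SLC2A12 and SLC2A13 lay above both medians, and every probe set of SLC2A3, SLC2A4 and SLC2A10 lay below both. Markers of squamous epithelium were bright, as for DSP, a desmosomal plaque protein, with an intensity of 4239 on the PTHLH array and 3664 on the empty vector array, and all 5 measured of 8 listed lay above both medians. Of 6 fibroblast markers, COL1A1, with 1652 on the PTHLH array and 2437 on the empty vector array, DCN and PDGFRB lay above both medians, and COL1A2, COL3A1 and LUM lay below both. Of 3 endothelial markers, PECAM1 and VWF lay above both medians, and of 3 measured leukocyte markers, CD3E lay above the empty vector median alone and PTPRC and CD14 below both. None of these markers of other cell types was 1.5-fold changed by the brightest probe set. For COL1A1, 1 of its 5 probe sets was at least 1.5-fold lower, with a log2 difference of -0.66. The part of these markers in the members' values was not tested. Of the markers of muscle and fat cells, the usual sites of SLC2A4, 3 of 5 lay below both medians. PLIN1 lay above both medians, and MYH7 above the empty vector median alone.

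Among the 23 member probe sets, 1 (SLC2A5 204430_s_at) reached 1.5-fold on the higher side of the PTHLH array, 1 (SLC2A13 227176_at) reached it on the lower side, and 21 stayed short of it. Among all probe sets with a single symbol, 2% reached it on the higher side and 2.78% on the lower side. The 2 member probe sets past this threshold were also past 2-fold, which 0.173% of all probe sets reached on the higher side and 0.513% on the lower side. By the brightest probe set of each gene, SLC2A5 was higher, SLC2A13 was lower and 8 genes lay within 1.5-fold, beside 1.97% higher and 3.52% lower among the 19775 genes measured. The median log2 difference, PTHLH minus empty vector, was 0.07 over the member probe sets and 0 over all probe sets with a single symbol. Above 0 were 13 member probe sets, below 0 were 8, and 2 held an identical value on both arrays.

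**Figure D1:**
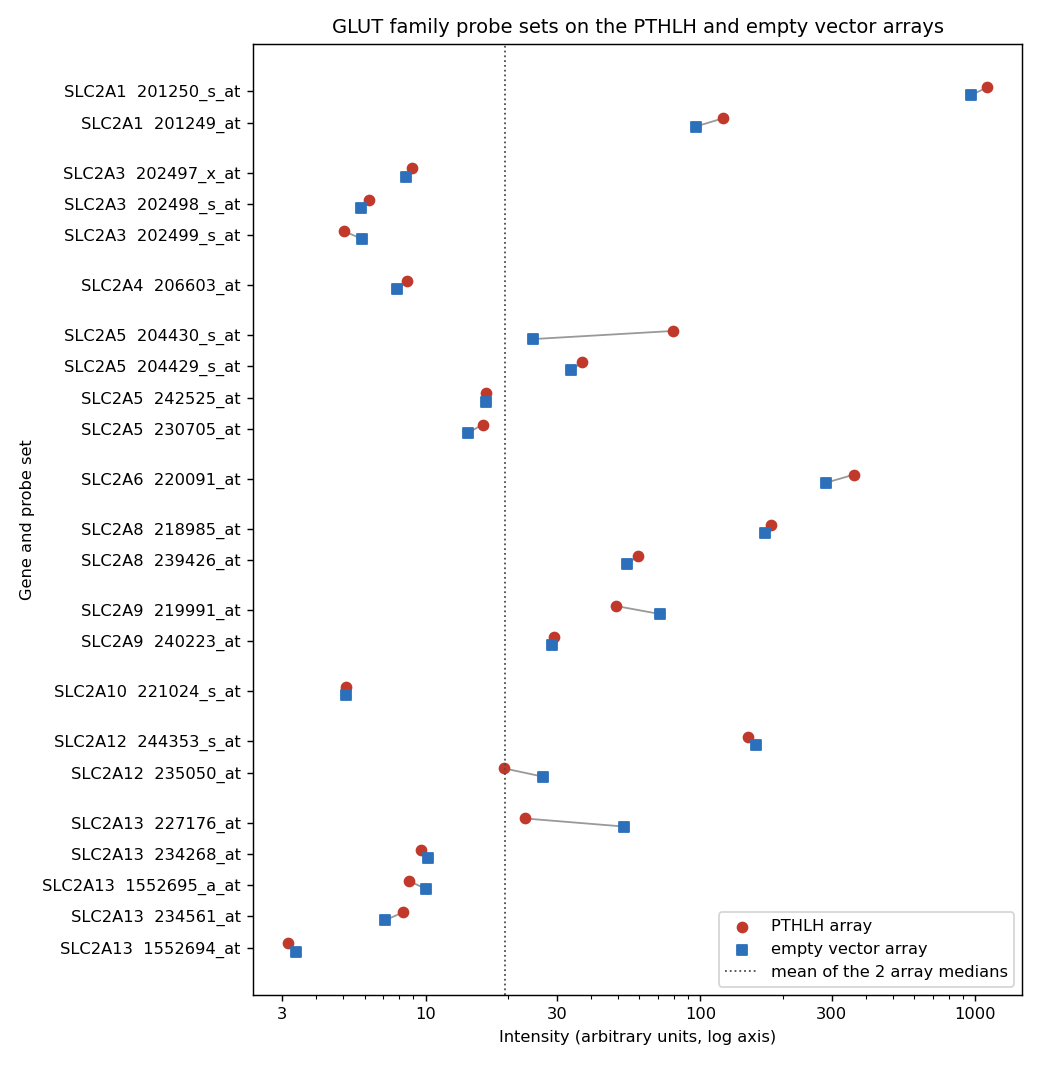
Log-scaled intensity (arbitrary units) of the 23 GLUT family probe sets on the PTHLH array (red circles) and on the empty vector array (blue squares), 1 array each, joined by a line, with the mean of the 2 array medians dotted. The wide gaps are those of SLC2A5 204430_s_at, with 79.7 on the PTHLH array and 24.6 on the empty vector array, and of SLC2A13 227176_at, with 22.9 and 52.8 in the same order.

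SLC2A1 is the main glucose carrier of proliferating epithelial cells. Its probe set 201250_s_at had an intensity of 1107 on the PTHLH array and 962 on the empty vector array, a log2 difference of 0.20. The second, 201249_at, had 120 on the PTHLH array and 96.0 on the empty vector array, a log2 difference of 0.33. Both probe sets were slightly higher on the PTHLH array, both short of 1.5-fold. The long noncoding RNA SLC2A1-DT, which is transcribed divergently from beside SLC2A1, had 21.0 on the PTHLH array and 22.4 on the empty vector array.

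SLC2A3, a high-affinity glucose carrier best known from neurons, had 3 probe sets, all below the medians of both arrays. The brightest, 202497_x_at, had 8.96 on the PTHLH array and 8.51 on the empty vector array, and the 3 log2 differences ran between -0.23 and 0.09. The probe set 216236_s_at, shared with SLC2A14, had 18.1 on the PTHLH array and 26.5 on the empty vector array, and the other shared one, 222088_s_at, had 9.29 and 8.88 in the same order. SLC2A4, the carrier that insulin brings to the surface of muscle and fat cells, was likewise dim. Its single probe set 206603_at had 8.58 on the PTHLH array and 7.84 on the empty vector array, a log2 difference of 0.13. By probe sets with a single symbol, SLC2A3, SLC2A4 and SLC2A10 were the 3 of 10 genes that stayed below both array medians, while the shared 216236_s_at lay above the empty vector median.

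SLC2A5, the fructose carrier, had 4 probe sets, and they disagreed. The probe set 204430_s_at had 79.7 on the PTHLH array and 24.6 on the empty vector array, 3.24-fold higher with a log2 difference of 1.70. The probe set 204429_s_at, also above both medians, had 36.9 on the PTHLH array and 33.9 on the empty vector array, a log2 difference of 0.12. The dim 230705_at had 16.1 on the PTHLH array and 14.3 on the empty vector array, a log2 difference of 0.17. The dim 242525_at had 16.6 on both. Only the first of the 4 was thus past 1.5-fold, and the other 3 ran between 0 and 0.17.

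The high value of 204430_s_at was known when SLC2A5 was chosen, so its size carries no evidence of its own, and the agreement among probe sets is described instead. Between the 2 brightest probe sets of a gene, the spread corresponded to an SD of 0.26 for a single log2 difference, over 1148 genes whose 2 probe sets both had a mean log2 level from 4 to 6. Over the full set of 10523 genes with more than 1 probe set it was 0.23. This spread covers differences between probes, not between cultures. Of 5 genes with a probe set at least 3-fold higher and at least 1 other probe set, 4 had another that was at least 1.5-fold higher, and SLC2A5 was the one without. The 3-fold limit was set after the value of SLC2A5 was known, so this count is a description alone.

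The choice of probe set decided the value of SLC2A5. On the empty vector array alone 204429_s_at was the brighter of the pair, and with the gene read from the probe set that was brightest there its log2 difference was 0.12. With the median over its 4 probe sets it was 0.15. The platform annotation ties 204430_s_at to a RefSeq mRNA record of SLC2A5 and 204429_s_at to an expressed sequence tag. Both carry the suffix s, which marks probes that can match several transcripts, and whether they read different transcripts was not tested.

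**Figure D2:**
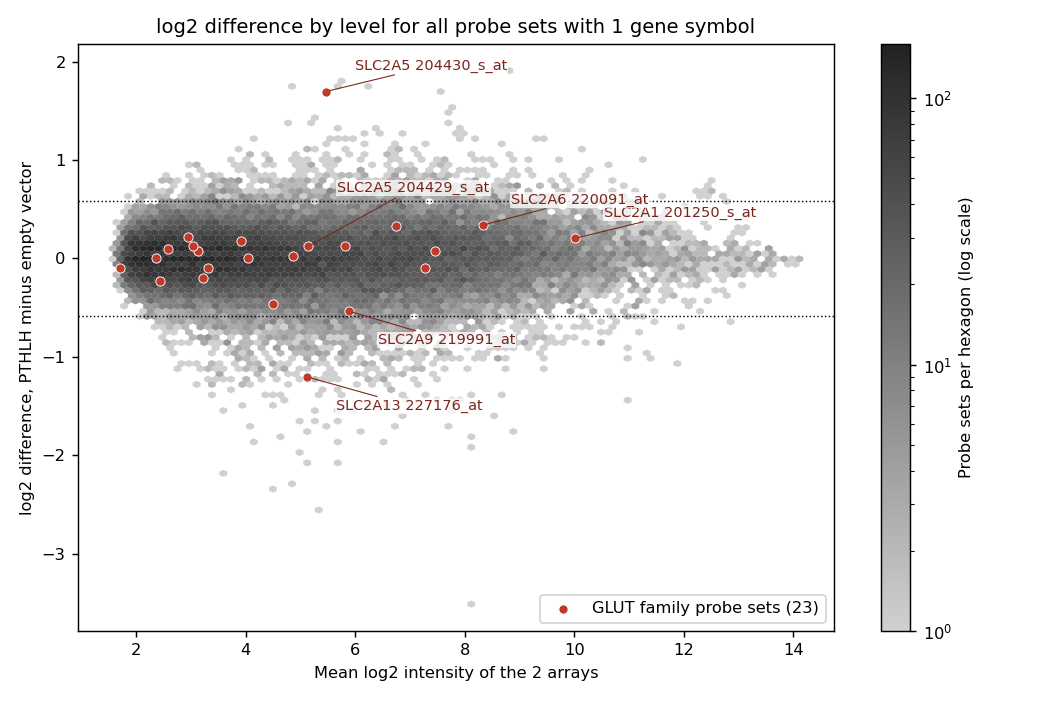
Log2 difference, PTHLH minus empty vector, against the mean log2 intensity of the 2 arrays for all 41097 probe sets with a single symbol (grey hexagons, darker for more probe sets on a log scale) and for the 23 GLUT family probe sets (red), with 1.5-fold in either direction dotted. SLC2A5 204430_s_at at 1.70 and SLC2A13 227176_at at -1.20 lie outside the dotted lines, and the other 21 red points lie between them.

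SLC2A13, the proton-coupled myo-inositol carrier best known from the brain, was the counterpart on the lower side. Its probe set 227176_at had 22.9 on the PTHLH array and 52.8 on the empty vector array, a log2 difference of -1.20, or 2.30-fold lower. The other 4 probe sets lay below both medians, with log2 differences between -0.20 and 0.22 and intensities of 3.17 to 9.60 on the PTHLH array and 3.39 to 10.2 on the empty vector array. The median over its 5 probe sets was a log2 difference of -0.10. The annotation ties 227176_at to an expressed sequence tag, and 2 of the dim probe sets to the RefSeq mRNA record. A probe set at least 2-fold lower, with at least 1 other probe set, was found for 128 genes. Of these, 79 (61.7%) had no other that was at least 1.5-fold lower, so a lone lower probe set was common at this limit. It differs from the 3-fold limit used beside SLC2A5, so these counts are not comparable.

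SLC2A9, the urate carrier, came next on the lower side. Its probe set 219991_at had 49.2 on the PTHLH array and 71.4 on the empty vector array, 1.45-fold lower with a log2 difference of -0.54, just short of 1.5-fold. Its second, 240223_at, had 29.5 on the PTHLH array and 29.0 on the empty vector array, a log2 difference of 0.02.

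The remaining members belong to the class of the family whose carriers largely stay on internal membranes or whose substrates are less settled. SLC2A6, known from lysosomes of immune cells, had 361 on the PTHLH array and 286 on the empty vector array by its single probe set 220091_at, a log2 difference of 0.34 that was the second highest among the member genes. SLC2A8, an intracellular carrier of sugars including trehalose, had 180 on the PTHLH array and 172 on the empty vector array by 218985_at, and 59.1 and 54.2 in the same order by 239426_at, log2 differences of 0.07 and 0.12. SLC2A12, a carrier known from insulin-responsive tissues, was lower by both probe sets without reaching 1.5-fold. Its probe set 244353_s_at had 149 on the PTHLH array and 160 on the empty vector array, a log2 difference of -0.10, and 235050_at, near the array medians, had 19.4 and 26.7 in the same order, a log2 difference of -0.46. SLC2A10, whose loss causes arterial tortuosity syndrome in humans, had 5.13 on both arrays.

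The identical values of SLC2A10 and of SLC2A5 242525_at had many counterparts. Of all 54675 probe sets, 3367 (6.16%) held an identical value on both arrays, and 79.6% of these lay below both medians. Such a value gives no measure of a difference at low signal. Of the members, 3 had probe sets on both sides of 0, namely SLC2A3, SLC2A9 and SLC2A13.

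Of the other genes of the family, SLC2A2, the glucose carrier of liver and pancreatic beta cells, had 4.15 on the PTHLH array and 3.85 on the empty vector array, and SLC2A11 had 3 probe sets above both medians. The brightest of SLC2A11, 1558540_s_at, had 152 on the PTHLH array and 194 on the empty vector array, and its log2 differences ran between -0.36 and 0.10. SLC2A7 and SLC2A14 had no probe set of their own in the annotation used and are not analysed here.

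The genes beside SLC2A5 and SLC2A13 on the chromosome were read by the brightest probe set, and whether they share a change was not tested. The nearest measured protein-coding genes around SLC2A5 are ENO1 and CA6 on one side, with log2 differences of 0.29 and 0.26, and GPR157 and H6PD on the other, with -0.41 and -0.04. All 4 lay within 1.5-fold, and CA6 lay below both medians. Around SLC2A13 the measured genes ABCD2, REDIC1, LRRK2 and MUC19 had log2 differences between -0.48 and 0.29. All of these lay below both medians, so they cannot show whether a change was shared.

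Genes that act beside the GLUT carriers were read by the brightest probe set, in lists chosen with earlier results of these data known. The counts below stand beside 1.97% of all 19775 genes at least 1.5-fold higher and 3.52% lower. None of the 7 sodium-coupled carriers of the SLC5A group, which pull sugar or inositol in against a gradient, was 1.5-fold changed, and their median log2 difference was -0.05. SLC5A3, the sodium-coupled myo-inositol carrier, had 188 on the PTHLH array and 237 on the empty vector array, a log2 difference of -0.33, with its 4 probe sets between -0.33 and -0.08. SLC5A11, also an inositol carrier, was near the array median, with 19.9 on the PTHLH array and 18.6 on the empty vector array, a log2 difference of 0.10. The sugar carriers SLC5A2 and SLC5A10 had log2 differences of -0.05 and -0.04. Of the inositol carriers, SLC2A13, with a log2 difference of -1.20, and SLC5A3 were thus both lower by the brightest probe set. The dim other probe sets of SLC2A13 lay on both sides of 0. The 0.10 of SLC5A11 was smaller than the SD of 0.26 given above for probe sets of a gene. The -0.33 of SLC5A3 was short of 1.5-fold and not far above that SD, and the smallest difference of its probe sets, -0.08, was below it. Whether these inositol carriers share a direction was therefore not resolved.

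Of 9 other sugar and sugar phosphate carriers, 1 was at least 1.5-fold higher and 2 were lower. SLC50A1, the human SWEET carrier, had 236 on the PTHLH array and 377 on the empty vector array, a log2 difference of -0.68. SLC45A3 had 38.8 and 58.6 in the same order, a log2 difference of -0.59, while its other probe set had 0. SLC37A2, a sugar phosphate exchanger, had 57.1 on the PTHLH array and 38.1 on the empty vector array and stood at the threshold, with a log2 difference of 0.59. SLC45A2 had 16.2 on the PTHLH array and 20.9 on the empty vector array, a log2 difference of -0.37. The median of the list was -0.04.

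Of the 6 measured genes of fructose and polyol handling, 0 were 1.5-fold higher and 1 was lower, with 3 above 0, 3 below 0 and a median of 0.05. KHK, the ketohexokinase that phosphorylates fructose, had 92.3 on the PTHLH array and 143 on the empty vector array, a log2 difference of -0.63, and -0.25 by its second probe set. TKFC, which phosphorylates the glyceraldehyde from fructose, had 141 and 183 in the same order, a log2 difference of -0.38. FBP2, a fructose bisphosphatase, and GLYCTK, a glycerate kinase, had log2 differences of 0.28 and 0.19. None of the 5 measured hexokinases was 1.5-fold changed, with a median of 0. HK2, the hexokinase that many tumours induce, had the largest difference of them, with 43.7 on the PTHLH array and 30.3 on the empty vector array, a log2 difference of 0.53, and its 3 probe sets ran from 0.19 to 0.62, so that 1 of them passed 1.5-fold. ADPGK had a log2 difference of 0.23, HK1 and HK3 had -0.11 each, and HKDC1 had 0 by its brightest probe set but 0.59 by the highest of its 4.

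Of 19 glycolysis genes, none was 1.5-fold higher, 3 were lower and 13 had a log2 difference above 0, with a median of 0.03. ENO2, the neuronal enolase, had 36.3 on the PTHLH array and 122 on the empty vector array by its single probe set, a log2 difference of -1.75. ALDOC, the brain aldolase, had 769 and 1317 in the same order, a log2 difference of -0.78. PFKP, the platelet phosphofructokinase, had 324 on the PTHLH array and 489 on the empty vector array, a log2 difference of -0.59, against 0.15 by its second probe set. The general enolase ENO1 had 3533 on the PTHLH array and 2893 on the empty vector array. Of 5 listed genes of lactate export, 3 were measured and none was 1.5-fold changed. BSG and EMB, partner proteins of the lactate carriers, had log2 differences of -0.06 and -0.05. The carriers SLC16A1 and SLC16A3 were not measured, and SLC16A7 lay below both medians, so the carriers themselves were not assessed.

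Among 16 measured genes of carrier trafficking and turnover, 2 passed 1.5-fold on the lower side and 0 on the higher side, with a median of 0.06. Both belong to the alpha-arrestins, adaptors known to curb glucose uptake by taking glucose carriers off the cell surface. TXNIP had 664 on the PTHLH array and 1177 on the empty vector array, a log2 difference of -0.83, and all 3 of its probe sets were at least 1.5-fold lower, between -0.83 and -0.65. ARRDC4 had 67.9 on the PTHLH array and 143 on the empty vector array by its single probe set, a log2 difference of -1.08. RHOQ, a small GTPase of the trafficking list, was within 1.5-fold by its brightest probe set with a log2 difference of -0.26, but 3 of its 6 probe sets were at least 1.5-fold lower, down to -1.07. TBC1D4, the GTPase-activating protein that holds SLC2A4 vesicles back until insulin acts, had 90.6 and 68.1 in the same order, a log2 difference of 0.41, and 0.55 by its second probe set. Its relative TBC1D1 had 148 on the PTHLH array and 189 on the empty vector array, a log2 difference of -0.35, and its 5 probe sets ran from -0.43 to 0.03.

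None of the 15 measured regulators of carrier genes was 1.5-fold changed by the brightest probe set, and their median log2 difference was 0.06. HIF1A, the hypoxia factor that acts on SLC2A1 and SLC2A3, had 1374 on the PTHLH array and 1493 on the empty vector array, and MYC had 411 and 374 in the same order. MLXIPL, a glucose-sensing factor, had 44.7 on the PTHLH array and 53.4 on the empty vector array, a log2 difference of -0.26. The brighter MLXIP had 852 and 815 in the same order, a log2 difference of 0.06, with its 4 probe sets between 0.06 and 0.30. MLX had a log2 difference of 0.10, and its 6 probe sets ran from -0.25 to 0.56. MEF2D, of a family of muscle transcription factors, had a log2 difference of -0.25, and NR1H3, a sterol-sensing nuclear receptor, had 0.18. The nuclear receptor NR4A1 had a log2 difference of 0.16, but 1 of its 3 probe sets had -0.82.

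Of 11 genes that handle urate or dehydroascorbate, the other substrates of the family, 1 was at least 1.5-fold higher and 1 was lower. XDH, the oxidase that makes urate, had 78.1 on the PTHLH array and 47.9 on the empty vector array, a log2 difference of 0.71, and 0.07 by its second probe set. GSTO2, a dehydroascorbate reductase, had 23.2 on the PTHLH array and 45.9 on the empty vector array, a log2 difference of -0.99, and -0.39 by its second probe set. SLC23A3 had a log2 difference of -0.40 by one probe set and 0.39 by the other, and SLC22A11, a urate carrier, had -0.31. The medians of the 9 related lists lay between -0.05 and 0.06, beside 0.07 for the GLUT family genes and 0 for all genes.

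**Figure D3:**
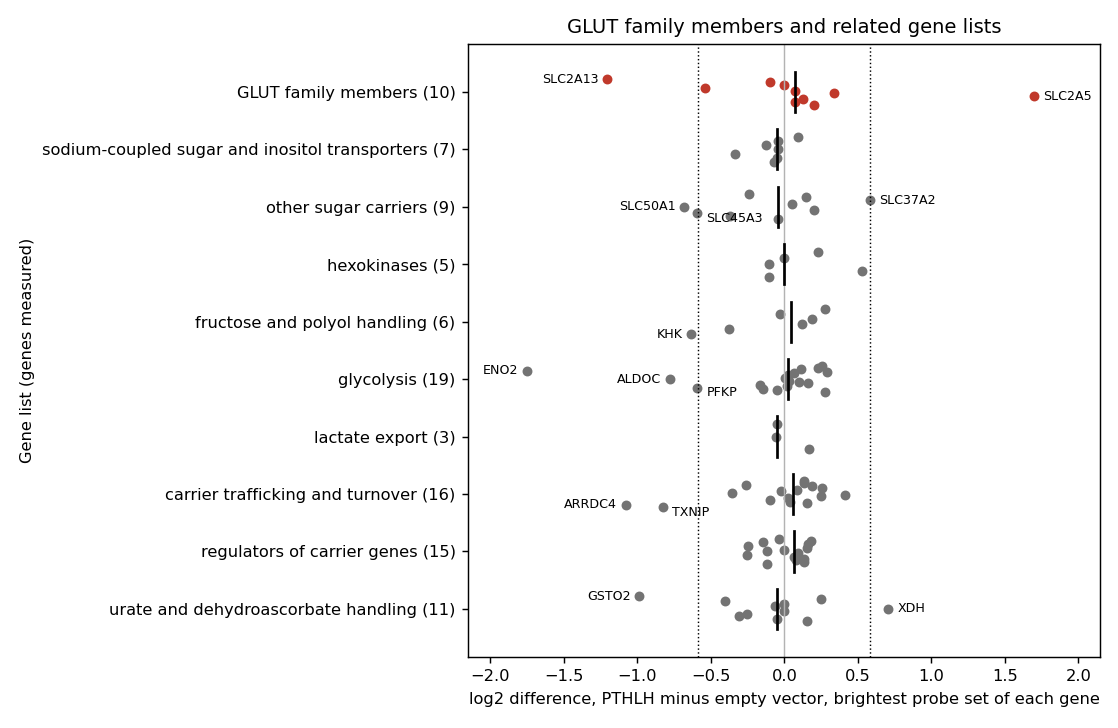
Log2 difference, PTHLH minus empty vector, of the brightest probe set of each gene, for the 10 GLUT family members (red) and 9 related gene lists (grey), with the median of each list as a black bar and 1.5-fold in either direction dotted. Genes at least 1.5-fold changed are named. SLC2A5 is drawn at 1.70, and would lie at 0.12 if read from its brightest probe set on the empty vector array alone.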

How the data were processed

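The authors deposited 1 intensity for each of 54675 probe sets on 2 Affymetrix U133 arrays, on a linear scale. For these values, the sources used here do not give software, background correction, normalization or probe summary. Intensities were turned into log2 values and differences taken as PTHLH minus empty vector without further normalization. Symbols came from the platform annotation and were updated through gene identifiers of GRCh38.p14. Probe sets with several symbols (1801) or unnamed here (11777) were left out. Each gene was read from its brightest probe set (mean log2 level of the 2 arrays). At least 1.5-fold, the threshold of the study, was counted, and no test was run, because precision is limited by having 1 array for each condition.

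The members and the 9 related lists were chosen with earlier results of these data known. Named were every member probe set, other family genes and, in each list, up to 4 genes with the largest absolute difference above an array median. SLC2A1-DT, the chromosomal neighbours, the count of lone probe sets, the upstream motifs, HIF1A, MYC, RHOQ, HKDC1 and other genes named outside this rule were chosen after values had been seen. The alternatives were quantile normalization, centring on brighter probe sets, raising low values to percentile 40 of their array, omitting dim probe sets or those with the suffix x or s, a 2-fold threshold, and a gene's median or largest change. Reading each gene from its brightest probe set on the empty vector array was added after seeing the data. The counting was tested on simulated data with less noise than the spread between probe sets here. That checks the code, not how often unchanged probe sets pass 1.5-fold in these data. Python 3.11.15, pandas 2.3.3, numpy 2.4.6 and matplotlib 3.10.9 were used.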

Additional observations from a re-analysis of the deposited data

How the results depend on the processing

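The counts of higher and lower member probe sets and genes, 1 each, were the same under quantile normalization, centring, the floor, the filter on dim probe sets and the 2-fold threshold, and the gene counts also with a gene's largest change. Centring moved no member value. The 2 probe sets counted lay above both array medians, so neither the floor nor the filter on dim probe sets could remove them. The largest change could not remove the genes counted either, so these settings do not check them. Without probe sets of suffix x or s, the count of higher member probe sets and of higher member genes was 0, since both bright SLC2A5 probe sets carry that suffix, and 15 probe sets of 8 genes were left. With genes read as the median of all their probe sets, 0 genes were higher and 0 lower. Read from the brightest probe set of the empty vector array, 0 genes were higher and 1 was lower. The median over member probe sets ran from -0.0029 with the floor to 0.10 without dim probe sets, and no member probe set moved by more than 0.22 under quantile normalization, centring or the floor. No paired analysis was possible because each condition has 1 array.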

Other observations

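SLC2A4RG, a zinc finger protein named for its binding to the SLC2A4 enhancer and chosen here after values had been seen, had 4 probe sets. The probe set 1555500_s_at had 242 on the PTHLH array and 151 on the empty vector array, 1.60-fold higher with a log2 difference of 0.68. The brightest, 218494_s_at, had 728 and 619 in the same order, a log2 difference of 0.23, and 222650_s_at had 59.5 and 51.6, a log2 difference of 0.20. The dim 227362_at had a log2 difference of -0.22. The single probe set of SLC2A4 itself lay below the medians of both arrays.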
